A study of Mus musculus with 17 samples.

Results

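Cd79a, Cd79b, Ms4a1, Pax5, Ebf1, Cxcr5, Fcer2a, Fcmr and Bank1 are 9 genes by which B cells are recognized, and their signals were followed in the thymi of 17 mice, among 18194 genes measured on Affymetrix mouse arrays. A probe set was assigned to a gene where it carried that symbol alone, and a gene with several probe sets was represented by the one with the highest mean over the 17 arrays. The genes were chosen by their log2 signals in these same arrays, in which Ms4a1, Cxcr5, Fcer2a and Fcmr are high in tumor-free Tcf1-/- thymi. The differences of all 9 genes from tumor-free Tcf1-/- thymi are therefore given as descriptions, with no test, whether the other group is controls or lymphomas. All 9 genes had a probe set and passed the filter on low signals, which kept the 13756 genes that exceeded the 40th percentile on 4 or more arrays. Ebf1 did so in 6 arrays, the 4 of tumor-free Tcf1-/- thymi among them, and thus passed through the group in which it was high. Cxcr5 lay above the 40th percentile in 15 arrays and the remaining members in all 17.

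Total RNA came from homogenized thymus of C57Bl/6 mice, each with an array of its own. The 5 controls were Tcf1+/- (wt/ΔVII), the 4 tumor-free mice were Tcf1-/- (ΔVII/ΔVII) without a tumor, and the 8 lymphoma-bearing mice had the same Tcf1-/- (ΔVII/ΔVII) genotype and a thymic lymphoma. Every mouse therefore carried at least 1 ΔVII allele of Tcf1, a transcription factor of T-cell development, and thymi without that allele were not analysed here. Age and sex are not given in the labels, the study counted a Tcf1-/- thymus as tumor-bearing by its number of cells, and the signal of the targeted gene was not analysed here.

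B cells arise in the bone marrow, where Ebf1 and Pax5 commit progenitors to the lineage, and a small population of B cells resides in the normal thymus. Their antigen receptor signals through the paired chains Cd79a and Cd79b, and mature B cells add surface proteins such as Ms4a1 (CD20), Fcer2a (CD23), the IgM receptor Fcmr and the chemokine receptor Cxcr5, which leads cells to follicles along the chemokine Cxcl13. The labels give homogenized thymus as the source and the study's methods homogenized thymocytes, with no purification step described for the arrays. In such a mixture of cells, more B cells in a thymus and more RNA per B cell cannot be told apart in any value below.

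Promoter sequences were taken from RefSeq (GRCm38.p6) to show the stretch of DNA from which these transcripts start, 250 bases before to 50 bases after the annotated start. The table held 9 promoters of 6 members, and Cd79b, Ms4a1 and Cxcr5 had no entry. The members with a single entry are shown, which sets Pax5, whose signal overlapped between the 3 groups, beside Cd79a, Fcmr and Bank1. Capitals mark, on either strand, the EBF core CCCNNGGG, the ETS core GGAAGT, the octamer ATTTGCAT and the TATA box TATAAA, which are letters bound by B-cell factors or general start-site elements.
Cd79a promoter, chr7:24897247-24897546, plus strand: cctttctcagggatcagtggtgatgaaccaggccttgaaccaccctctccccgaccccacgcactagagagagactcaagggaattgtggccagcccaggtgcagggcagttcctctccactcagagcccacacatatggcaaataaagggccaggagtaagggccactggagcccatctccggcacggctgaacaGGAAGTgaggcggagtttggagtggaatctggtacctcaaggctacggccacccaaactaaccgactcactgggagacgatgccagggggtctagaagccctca
Fcmr promoter, chr1:130865527-130865826, plus strand: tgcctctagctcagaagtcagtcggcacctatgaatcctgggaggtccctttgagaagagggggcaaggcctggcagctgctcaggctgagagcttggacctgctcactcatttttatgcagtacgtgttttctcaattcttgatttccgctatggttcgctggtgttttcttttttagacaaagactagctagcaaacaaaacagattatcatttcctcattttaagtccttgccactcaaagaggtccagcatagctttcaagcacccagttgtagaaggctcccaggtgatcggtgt
Bank1 promoter, chr3:136326017-136326316, minus strand: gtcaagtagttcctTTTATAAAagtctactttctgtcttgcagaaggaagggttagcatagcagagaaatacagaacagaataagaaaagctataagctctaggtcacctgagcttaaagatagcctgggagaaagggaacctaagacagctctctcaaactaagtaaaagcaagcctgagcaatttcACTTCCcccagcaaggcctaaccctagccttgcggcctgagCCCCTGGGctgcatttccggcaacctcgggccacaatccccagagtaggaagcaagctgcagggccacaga
Pax5 promoter, chr4:44710645-44710944, minus strand: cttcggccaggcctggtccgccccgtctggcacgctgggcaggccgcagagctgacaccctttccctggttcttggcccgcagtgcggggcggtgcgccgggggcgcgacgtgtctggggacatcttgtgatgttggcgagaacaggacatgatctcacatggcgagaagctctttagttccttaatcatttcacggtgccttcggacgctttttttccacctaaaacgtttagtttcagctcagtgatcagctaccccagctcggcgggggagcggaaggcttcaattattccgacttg

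Of these 4 promoters, Bank1 held an EBF core, an ETS core and 2 overlapping TATA matches that lie on opposite strands, Cd79a held 1 ETS core, and Fcmr and Pax5 held none of the 4 motifs. Over all 9 member promoters the ETS core was present in 4, of Bank1, Cd79a, Ebf1 and Fcer2a, against 23.8% of 32851 mouse promoters of the same length. The EBF core was in 1 of 9 against 13.7% of all promoters. No member promoter contained the octamer, which 1.74% of all promoters held, and TATAAA, held by 13.6% of all, was found in Bank1 and Fcer2a. The fifth motif searched, the E-box CANNTG, occurred in 8 of 9 and in 72.3% of all promoters, and is not capitalized. These matches describe letters in a window only.

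The arrays of control mice 1 and 2 and of lymphomas 1 and 2 stood apart from the other 13. Their interquartile range was 2.93 to 3.06 on the log2 scale, compared with 3.49 to 3.75 in the others, and the Gapdh 3′ signal exceeded the 5′ signal by 1.12 to 2.63, compared with -0.13 to 0.96. The 40th percentile lay between 4.69 and 4.98 in all 17 arrays. The mean signal of 3 Y-linked genes was above 6 in 4 of 5 controls, 4 of 4 tumor-free mice and 2 of 8 lymphomas (4 and 6), so that Y-linked signal was unevenly spread over the groups. Values without the 4 arrays and with Y-linked signal in the fit are therefore given where the members are compared.

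The antigen receptor chains Cd79a and Cd79b were higher in each tumor-free Tcf1-/- thymus than in any other thymus. Cd79a had log2 signals of 12.96, 11.41, 11.01 and 9.95 in tumor-free mice 1 to 4, and of 7.46, 6.99, 7.06, 7.06 and 6.48 in control mice 1 to 5. In the 8 lymphomas its lowest, median and highest signals were 6.10, 7.27 and 8.00. The 4 tumor-free values thus lay above all controls and all lymphomas, whereas controls and lymphomas overlapped. Cd79b had signals of 12.71, 11.33, 11.22 and 10.75 in tumor-free mice, and of 8.34, 8.40, 8.97, 8.49 and 8.73 in controls. Its lymphoma signals ran from 6.73 through a median of 8.06 to 9.18. Here too the tumor-free group was separate, and 5 of 8 lymphomas fell below the lowest control. The tumor-free minus control difference of the means was 4.32 for Cd79a and 2.92 for Cd79b.

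Bank1, an adaptor that acts downstream of the B-cell receptor, showed the same arrangement of groups. Its signal was 12.24, 11.24, 11.03 and 11.20 in tumor-free mice and 6.36, 6.51, 8.41, 7.74 and 7.73 in controls. The lymphomas ranged from 5.69 to 8.39 with a median of 6.95. No lymphoma exceeded the highest control and 3 of 8 were below the lowest. In controls the low values, 6.36 and 6.51, belonged to mice 1 and 2, whose arrays stood apart. The mean was 4.07 higher in tumor-free than in control thymi.

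Among the surface proteins of mature B cells, Ms4a1 encodes CD20, a tetraspan membrane protein. Ms4a1 signals were 13.16, 11.89, 11.83 and 11.42 in tumor-free mice and 6.95, 6.78, 8.73, 7.92 and 7.82 in controls. Its lymphoma signals were 6.40 at the lowest, 7.47 at the median and 8.81 at the highest. The tumor-free mice did not overlap with either group, and the lymphomas spread to both sides of the controls. Fcer2a, which encodes the low-affinity IgE receptor CD23, had signals of 11.04, 9.99, 9.37 and 9.51 in tumor-free mice and of 5.46, 5.65, 5.98, 5.31 and 5.44 in controls. Its lowest, median and highest lymphoma signals were 4.93, 5.46 and 6.47. Controls of Fcer2a were close to each other (5.57 ± 0.26, SD, n = 5), with 3 lymphomas above and 3 below all of them. The tumor-free minus control difference was 4.41 for Fcer2a.

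Fcmr, the receptor for the Fc part of IgM, had the largest difference of the 9 genes between tumor-free and control thymi, 5.00 on the log2 scale. The signals behind it were 12.71, 11.74, 11.17 and 11.41 in tumor-free mice and 6.08, 5.76, 7.50, 7.29 and 7.13 in controls. In lymphomas Fcmr ran from 6.17 through a median of 7.43 to 8.78. The lowest tumor-free mouse exceeded the highest control by 3.67, which was the widest gap among the members, and 2 lymphomas exceeded the highest control. Cxcr5 had signals of 11.53, 9.63, 9.42 and 8.86 in tumor-free mice and of 4.66, 5.43, 5.94, 5.32 and 5.29 in controls. Its lymphoma signals were 4.69, 5.19 and 6.10 at the lowest, median and highest. These groups again left the tumor-free mice apart. Cxcr5 is also carried by follicular helper T cells, and the other genes of that list went in both directions between tumor-free and control thymi. Bcl6 (-2.16) and Sh2d1a (-1.63) were lower by limma, while Icos (0.88, limma adjusted p = 0.0848) and Pdcd1 (0.40, limma adjusted p = 0.486) did not pass and each had 3 of 4 tumor-free mice above all controls. On the log2 scale the summed signal of the 5 helper genes was 11.16 to 11.30 in tumor-free mice. It was higher in every control (median 12.54, highest 12.61). In controls this sum mostly reflects Sh2d1a and Bcl6, which averaged 11.58 and 10.63 there, against 8.44 for Icos and 7.21 for Pdcd1. It also holds Il21, which did not pass the filter on low signals. The part of helper cells in the Cxcr5 signal was not tested.

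Signals of the factors that commit cells to the B lineage differed from each other. Ebf1 signals were 8.23, 7.15, 6.60 and 5.77 in tumor-free mice and 4.42, 4.76, 5.00, 4.43 and 4.44 in controls, with 4.35, 4.61 and 5.01 as the lowest, median and highest lymphoma. All tumor-free values were above all others, although the gap to the highest control was 0.76, the narrowest among the separated genes. Only 1 of 5 controls and 1 of 8 lymphomas exceeded the 40th percentile of their arrays for Ebf1. Pax5, which keeps B cells in their lineage, had signals of 6.09, 5.85, 6.10 and 5.58 in tumor-free mice and of 6.37, 6.39, 5.81, 5.34 and 5.20 in controls. Its lymphomas ran from 5.49 through 5.69 to 6.60. The 3 groups of Pax5 overlapped throughout, and the tumor-free minus control difference was 0.08. That mean combines a difference of 0.45 from control mice 3 to 5 with one of -0.48 from control mice 1 and 2, whose arrays stood apart. The highest Pax5 signals, 6.37, 6.39 and 6.60, were all on arrays that stood apart. All Pax5 signals lay not far above the 40th percentile of the arrays (4.69 to 4.98), so this probe set may detect its transcript weakly.

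**Figure D1:**
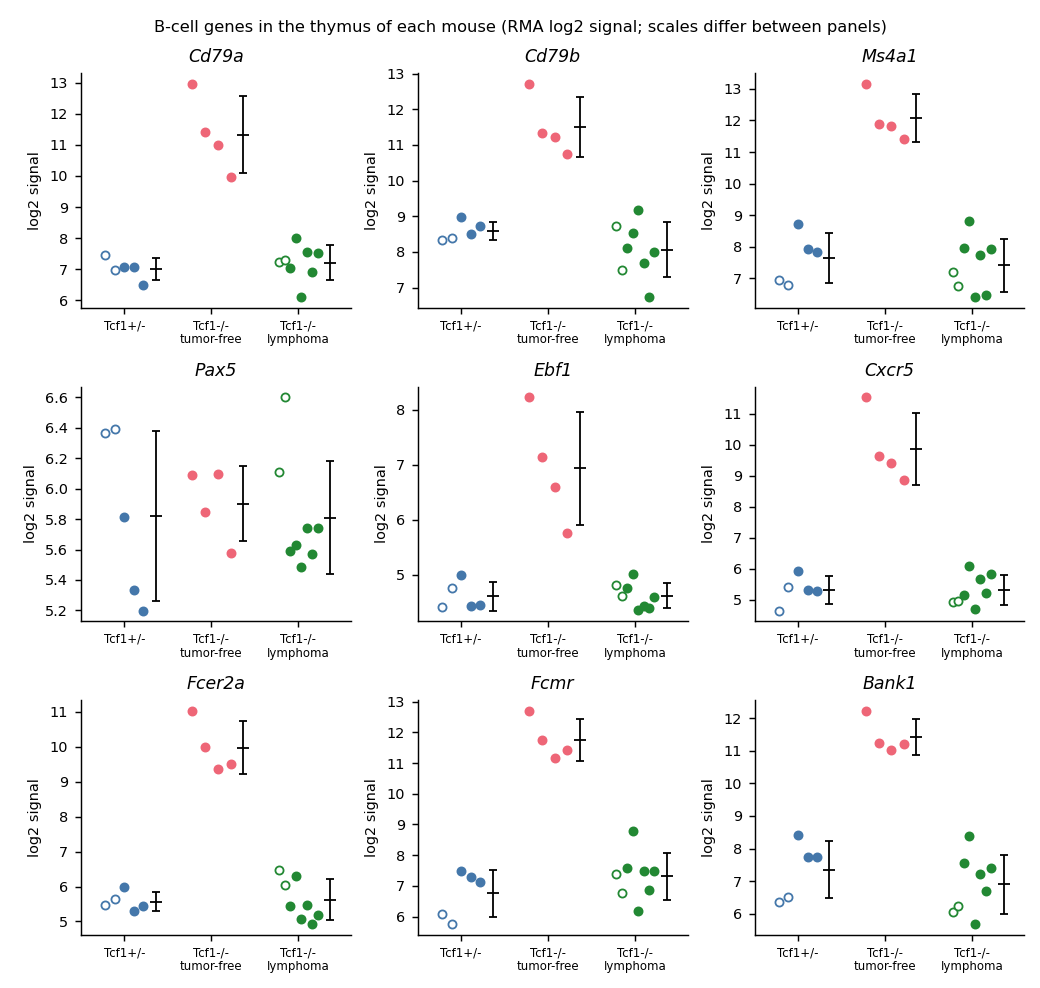
Log2 signal (vertical axis, RMA) of each of the 9 genes in 5 Tcf1+/- controls, 4 tumor-free Tcf1-/- thymi and 8 Tcf1-/- lymphomas, with 1 point per mouse, a black bar for the mean ± SD and open symbols for the 4 arrays that stood apart. In 8 panels the tumor-free points lie above all others, and in the Pax5 panel the groups overlap.

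Thus for 8 of 9 genes all 4 tumor-free thymi exceeded all 5 controls, an arrangement that 11.2% of all tested genes showed, and since these mice were used in picking the genes nothing is read from that count. The 8 differences had a median of 4.37 and ran from 2.32 (Ebf1) to 5.00 (Fcmr). Without the 4 arrays that stood apart they had a median of 4.13 and ran from 2.31 to 4.47. The tumor-free thymi themselves differed by 1.21 to 3.01 between their highest and lowest mouse over these 8 genes. Tumor-free mouse 1 was the highest for 8 of 9 genes, and mouse 4 was the lowest for 6 and mouse 3 for the other 3.

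Lymphomas were next set beside tumor-free thymi of the same genotype, which shows how the B-cell signal differed in an organ with a tumor. For the 8 genes other than Pax5, all 8 lymphomas lay below all 4 tumor-free thymi, an arrangement found in 6.26% of all tested genes. The median difference over the 9 members was -4.36, compared with 0.10 over all tested genes. The tumor-free values are those by which the genes were chosen, and Ebf1 entered the tested genes through them, so a difference in this direction was to a large extent set by the choice and no p-value is given.

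On the log2 scale the lymphoma minus tumor-free difference was -4.67 for Ms4a1 (SE 0.45), -4.54 for Cxcr5 (SE 0.42) and -4.52 for Bank1 (SE 0.45). The receptors for immunoglobulin, Fcmr and Fcer2a, had differences of -4.44 (SE 0.41) and -4.36 (SE 0.36). The receptor chains differed by -4.12 for Cd79a (SE 0.46) and -3.45 for Cd79b (SE 0.44). Ebf1 had the smallest difference of the separated genes, -2.31 (SE 0.34). Pax5 differed by -0.09 with a 95% interval of -0.55 to 0.36, and 2 of 8 lymphomas were below the lowest tumor-free mouse.

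Without lymphomas 1 and 2, whose arrays stood apart, the differences of the 8 genes were -4.58 to -2.34. When the Y-linked signal entered the fit, they were -4.09 to -2.24. That fit rests on lymphomas 4 and 6, since no other lymphoma had this signal, and lymphoma 4 was the highest lymphoma for 6 of the 9 genes.

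Lymphomas were also compared with Tcf1+/- thymi, and no member passed the test in either direction. Over all tested genes, 4.21% were lower and 8.49% higher in lymphomas by limma, and of the members 0 of 9 reached an unadjusted p under 0.05 by limma or by the exact permutation test, whose smallest possible value with 8 against 5 mice is 0.00155. The median difference of the members was -0.0028 and that of all tested genes 0.06. The controls are the mice that the genes were picked against, which ties this comparison to the choice of genes as well.

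The intervals show which differences the arrays can leave unseen. For Cxcr5 the lymphoma minus control difference was -0.0028 (95% interval -0.56 to 0.55), for Ebf1 0.01 (-0.32 to 0.34), for Fcer2a 0.05 (-0.52 to 0.62) and for Pax5 -0.01 (-0.54 to 0.51). Cd79a was at 0.20 (-0.37 to 0.77), Ms4a1 at -0.23 (-1.14 to 0.68), Bank1 at -0.45 (-1.43 to 0.54), Cd79b at -0.53 (-1.24 to 0.19) and Fcmr at 0.56 (-0.29 to 1.41). Intervals were widest for Bank1, Ms4a1 and Fcmr. Control values of these genes were split between mice 1 and 2 and the others, with ranges of 2.06, 1.95 and 1.73. Their lymphomas had ranges of 2.70, 2.41 and 2.61, and the source of the width was not tested. Within the 4 arrays that stood apart the 9 differences ran from -0.29 (Bank1) to 1.16 (Fcmr). Between lymphomas 3 to 8 and control mice 3 to 5, whose arrays did not stand apart, they ran from -0.80 (Bank1) to 0.32 (Cd79a). Fcmr passed the test in lymphomas only when Y-linked signal was a covariate (1.27, limma adjusted p = 0.0358).

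**Figure D2:**
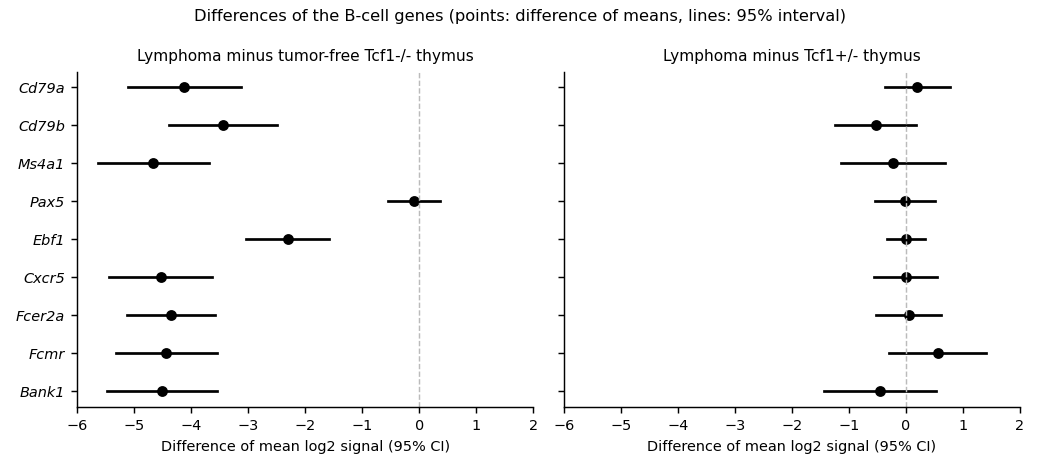
Difference in mean log2 signal (horizontal axis) of each of the 9 genes for lymphomas minus tumor-free Tcf1-/- thymi and lymphomas minus Tcf1+/- controls, with 95% intervals from limma. The first set lies between -4.67 and -2.31 except for Pax5 (-0.09), and all intervals of the second include 0. The tumor-free values of the first set are those by which the genes were chosen, so its intervals are descriptions and not a test.

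Among the lymphomas the 9 genes did not follow a common order in full. Lymphoma 4 was the highest for 6 genes and lymphoma 5 the lowest for 7, although Cd79b was highest in lymphoma 5 (9.18). Over the 8 lymphomas, Pearson correlations between pairs of the 8 genes other than Pax5 had a median of 0.607 and ran from -0.206 (Cd79a with Cd79b) to 0.943. Over all 17 arrays the same pairs correlated at 0.873 to 0.989 and pairs with Pax5 at -0.071 to 0.221. The 17-array values carry the difference between the groups, and both sets share arrays, so they are given as descriptions. Control mouse 3 was the highest control for 7 of 9 genes.

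For 4 members more than 1 probe set was present, 16 probe sets in all, and some disagreed in size. The other Ms4a1 probe set was 4.91 higher in tumor-free than in control thymi and 5.01 lower in lymphomas than in tumor-free thymi by mean. That of Fcer2a gave 2.81 and -2.85. For Ebf1, 5 probe sets gave tumor-free minus control differences of 3.90, 2.77, 2.32, 1.46 and -0.11. The last of these did not rise above the 40th percentile in any array, and the value of 2.32 is from the probe set used here. The second Pax5 probe set had differences of -0.05 and -0.12. Its group means were 5.07 to 5.23, close to the 40th percentile of the arrays, so a difference in Pax5 could go unseen.

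Other genes of the B lineage, with relatives and partners of the members, were counted in 10 lists. These hold 89 further genes, 72 with a probe set and 69 tested. Some are carried by other cells, such as Fcer1g, Fcgr1 and Fcgr3 by macrophages, so the counts are not of B-lineage genes alone. In tumor-free against control thymi 38 were higher, 7 lower and 24 passed in neither direction by limma, where 10.1% of all tested genes were higher and 4.7% lower. In lymphomas against tumor-free thymi 41 were lower and 2 (Mef2b and Vpreb1) higher, where 8.35% of all tested genes were lower and 6.34% higher. Against controls 14 were lower and 3 higher in lymphomas, where 4.21% of all tested genes were lower and 8.49% higher. The same shares over all tested genes apply to the counts of single lists below. The median differences of the 69 genes were 1.24, -1.60 and -0.12 in these comparisons, compared with -0.01, 0.10 and 0.06 over all tested genes. All 4 tumor-free thymi exceeded all 5 controls in 38 of the 69, an arrangement that 11.2% of all tested genes showed. All 8 lymphomas were below all tumor-free thymi in 34, compared with 6.26% of all tested genes. With Y-linked signal as a covariate, 20 of 69 rather than 43 were called in lymphomas against tumor-free thymi. Over all tested genes the calls fell from 2020 to 387 with that covariate.

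The receptors and coreceptors shared by most B cells formed the list that moved as a whole. All 10 tested members were higher in tumor-free than in control thymi, with a median of 3.41, and all 10 were lower in lymphomas than in tumor-free thymi, with a median of -3.59. Cd22, an inhibitory coreceptor, averaged 6.81 in controls, 11.15 in tumor-free thymi and 7.26 in lymphomas. Cr2, the complement receptor CD21, averaged 4.87, 8.89 and 4.68. H2-Ob, a B-cell chain that regulates antigen loading on MHC class II, was 4.06 higher in tumor-free thymi than in controls and 4.56 lower in lymphomas than in tumor-free thymi. Only Cd37 of this list was called between lymphomas and controls, 0.98 lower.

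Signal transducers of the B-cell receptor were higher in tumor-free than in control thymi in 6 of 9 cases, with a median of 2.32, and lower in lymphomas than in tumor-free thymi in 7 of 9. The kinases Blk (3.40) and Btk (2.86) and the linker Blnk (3.23) were among the 6. Blk was also higher in lymphomas than in controls, by 1.34 (limma adjusted p = 0.0495). Of the B-lineage transcription factors, 5 of 10 were higher in tumor-free thymi, among them the octamer coactivator Pou2af1 (3.41) and the ETS factor Spib (3.35). Pou2af1 was 1.29 higher in lymphomas than in controls (limma adjusted p = 0.0462), whereas Bach2 was 1.32 lower. Both calls lie near the threshold, and of 28 alternatives 5 called Blk and 12 called Pou2af1 higher in lymphomas than in controls.

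Genes of earlier and later B-cell stages moved in both directions. In the pro-B and pre-B list, Cd93 (2.87), Il7r (1.93) and Vpreb3 (1.59) were higher in tumor-free than in control thymi, and Rag1 (-2.11), Rag2 (-2.02), Dntt (-1.48) and Vpreb1 (-1.42) were lower. Rag1, Rag2 and Dntt carry out antigen receptor rearrangement in thymocytes as well as in B-cell progenitors, and Il7r is also carried by T cells. Of the germinal center genes, Rgs13 (1.43) and Gcsam (1.17) were higher and Fas (-2.49) and Bcl6 (-2.16) lower. Gcsam passed the filter on low signals only through the tumor-free thymi, and Rgs13 would not have passed without them. Their calls between tumor-free thymi and the other groups, which enter the counts above, were therefore favored by that filter. Plasma cell genes were higher in 4 of 8 cases, led by Sdc1 (3.52) and Mzb1 (2.40), and Sdc1 was also higher in lymphomas than in controls.

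Immunoglobulin transcripts could be followed for Ighm, the heavy chain of IgM, and Jchain, which joins IgM and IgA into polymers. With the probe sets used here, neither was called between tumor-free and control thymi, and both were lower in lymphomas than in each other group. Ighm averaged 13.94 in controls, 14.33 in tumor-free thymi and 12.53 in lymphomas, and Jchain 11.58, 12.27 and 9.35. The 11 Ighm probe sets differed widely, from -0.19 to 1.41 for tumor-free minus control from -2.70 to 0.58 for lymphoma minus tumor-free and from -1.71 to 1.28 for lymphoma minus control. By mean, 4 of 11 were lower and 7 higher in lymphomas than in tumor-free thymi, so that the direction for Ighm depends on the probe set.

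Partners of the members in the chemokine and survival systems were also followed. Cxcl13, the ligand of Cxcr5, ran from 5.15 to 7.43 in controls, from 8.92 to 11.42 in tumor-free thymi and from 5.00 to 9.27 in lymphomas. Its mean was 4.35 higher in tumor-free than in control thymi, while the lymphoma minus tumor-free difference of -2.57 did not pass (limma adjusted p = 0.0634). Ccr6, another chemokine receptor of B cells, was 3.38 higher in tumor-free thymi and 3.84 lower in lymphomas than in tumor-free thymi. Tnfrsf13c, the receptor for the survival factor BAFF, was 3.91 higher and then 3.34 lower, and the other 3 tested genes of the BAFF and APRIL list passed in neither comparison. Of the relatives of Ms4a1 and of the Fc receptors, 5 of 8 were higher in tumor-free thymi, namely Ms4a4c, Fcer1g, Fcgr3, Fcgr1 and Ms4a7. Fcer1g, Fcgr1 and Fcgr3 are carried by macrophages.

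**Figure D3:**
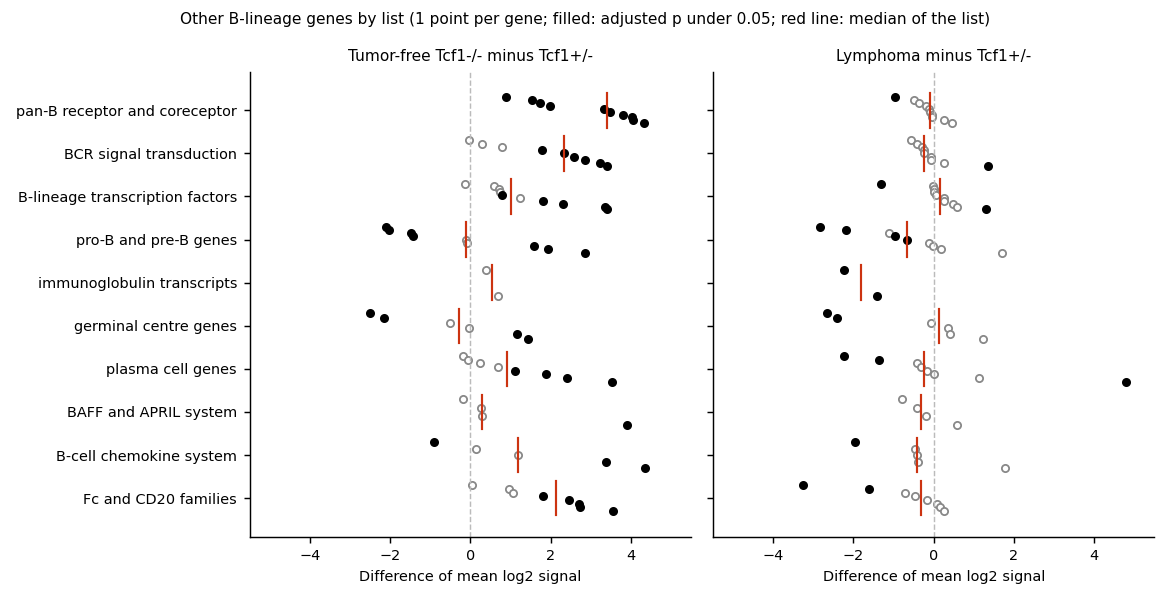
Difference in mean log2 signal for each tested gene of the 10 lists of other B-lineage genes and of relatives and partners of the members. Tumor-free thymi minus controls and lymphomas minus controls are shown, with filled points for genes at an adjusted p under 0.05 by limma and a red line for the list median. All 10 genes of the pan-B receptor list lie above 0 in tumor-free thymi (median 3.41), and against controls the lymphomas have a median of -0.10.

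Markers of several other cell types differed between the groups as well, and those of others did not. In tumor-free against control thymi, 11 of 11 macrophage and monocyte markers, 5 of 7 dendritic cell markers, 4 of 5 NK cell markers and 4 of 4 follicular dendritic cell markers were higher by limma, and 6 of 8 T-cell markers were lower. Over all tested genes 10.1% were higher and 4.7% lower in that comparison. Of the plasmacytoid dendritic cell markers 3 of 6 were higher and Ccr9 was lower, 3 of 6 fibroblast and 1 of 3 endothelial markers were higher, and 0 of 8 thymic epithelial markers passed in either direction. The follicular dendritic cell list includes Cr2 and Fcgr2b, which B cells also carry. In lymphomas against tumor-free thymi, 10 of 11 macrophage markers, 6 of 7 dendritic cell markers and 4 of 5 NK cell markers were lower. Over all tested genes 8.35% were lower and 6.34% higher there. The macrophage marker Vsig4, the dendritic cell marker Xcr1 and the endothelial marker Cdh5 passed the filter on low signals only through the tumor-free thymi. Their calls between tumor-free thymi and the other groups, which enter these counts, were therefore favored by that filter. Each of the 8 T-cell markers measured, among them Cd3e, Cd4 and Cd8a, is a gene of the thymocytes that make up most of a normal thymus.

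Marker signals were also summed over each list on the linear scale and given as log2. The 4 B-cell markers that are not members were Cd22, Blk, Fcrla and Pou2af1. In lymphomas their sum mostly reflects Blk and Pou2af1, which were called higher there than in controls. Cd22 (0.45) and Fcrla (-0.37) did not pass in that comparison. The B-cell sum ran from 7.97 to 8.92 in controls, 11.37 to 13.41 in tumor-free thymi and 8.36 to 10.17 in lymphomas. Macrophage markers ran from 12.01 to 13.35, 14.55 to 16.30 and 10.37 to 13.90, and the lowest lymphomas, 1 and 2, were arrays that stood apart. T-cell markers had sums of 15.22 to 15.97 in controls, 14.44 to 14.55 in tumor-free thymi and 14.67 to 14.93 in lymphomas. Adipoq and Fabp4, genes of the adipose tissue that lies next to the thymus, summed to 5.86 to 7.53, 8.33 to 10.46 and 5.06 to 10.79. The lymph node stroma genes of the same list were not analysed here. That sum mostly reflects Fabp4, which was 2.75 higher in tumor-free than in control thymi. Adipoq was not called there (0.53, limma adjusted p = 0.494). Its signals were 4.35, 4.15, 4.43 and 6.41 in tumor-free mice 1 to 4 and 4.00 to 4.58 in controls. In tumor-free mice 1 to 4 the B-cell sums were 13.41, 12.18, 12.02 and 11.37 and the macrophage sums 16.30, 15.79, 15.40 and 14.55. The mean of the 9 members, each centered over the 17 arrays, followed the same order at 3.85, 2.69, 2.41 and 2.05. The part of these cell types and tissues in the difference of the 9 genes was not tested.

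**Figure D4:**
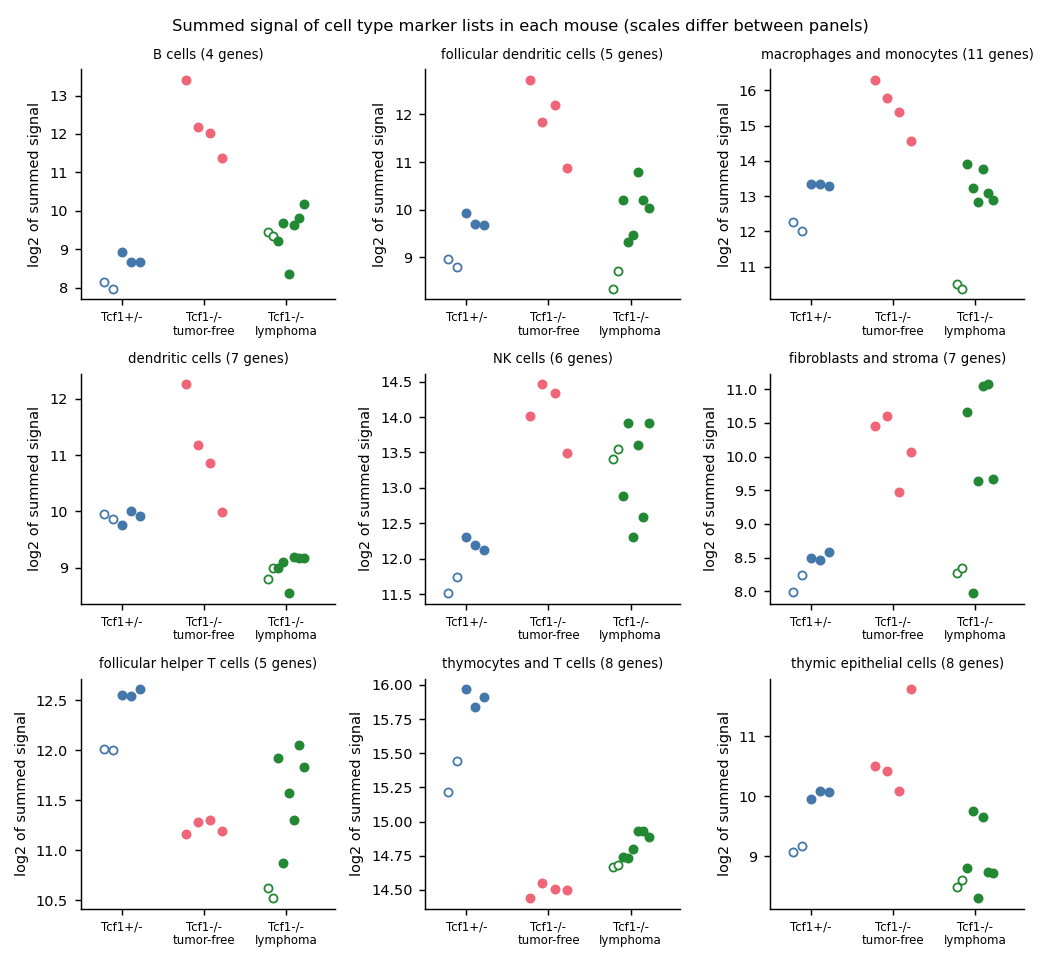
Summed signal of each marker list on a log2 scale (vertical axis) for every mouse of the 3 groups, with open symbols for the 4 arrays that stood apart. Tumor-free Tcf1-/- thymi have the highest B-cell sums (11.37 to 13.41) and macrophage sums (14.55 to 16.30), and the lowest T-cell sums (14.44 to 14.55).

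The genes whose pattern over the 17 arrays was most like the mean of the 9 members were Fcrl1 (Pearson r = 0.990), Fcrla (0.989), Cr2 (0.989), Hhex (0.986), Dennd5b (0.985), H2-DMb2 (0.983), Napsa (0.983) and Gm8369 (0.982). Fcrl1 averaged 5.57 in controls, 9.37 in tumor-free thymi and 5.54 in lymphomas. Over the 8 lymphomas alone other genes came first, namely Lzic (0.959), Pds5b, Fam241b, Ddias, Gm7788, Dgke, Ccr6 (0.943) and Batf3 (0.940). Both rankings are descriptions over arrays that the members share.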

How the data were processed

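RNA of 17 thymi was hybridized to Affymetrix mouse genome arrays. The authors summarized the arrays by RMA, which corrects background, equalizes probe distributions and combines the probes of a probe set, and the deposited values are log2 signals. Whether the arrays were normalized together is not given in the sources used here, and a shift shared by most genes cannot be seen after RMA. Of 45101 probe sets, 34958 carry 1 gene symbol, and each of 18194 genes was represented by the probe set with the highest mean. Genes above the 40th percentile in at least 4 arrays were tested (13756). Groups came from titles and strains.

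Each pair of groups was fitted separately with limma 3.58.1 in R 4.3.3, with Benjamini-Hochberg adjustment over all tested genes and a threshold of 0.05. Exact permutation tests of single genes in lymphomas against controls, correlations and counts used Python 3.11.15 with SciPy 1.17.1, pandas 2.3.3 and NumPy 2.4.6. The fits were tested on simulated data. The members and gene lists were chosen with earlier results of these data known. Besides the 9 members, up to 4 called genes per list with the largest change were named, together with partners of members, genes called between lymphomas and controls, and the 8 genes most like the mean of the members. Precision is limited by the number of arrays. The labels give 1 array per mouse.

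Replicate numbers are shared between groups. After subtraction of group means, lymphoma and control arrays of the same number correlated at 0.246 to 0.625 in 5 pairs, with the same number as the best match in 2 of 5, and numbers 1 and 2 belong to arrays that stood apart. Same-numbered arrays of lymphomas and tumor-free thymi (-0.189 to 0.0913) and of tumor-free and control thymi (-0.286 to 0.12) were not paired. Alternatives were leaving out each mouse, the replicate block, the array set as a block, omission of 4 arrays, other filters, probe sets, normalizations and variance models, and the Mann-Whitney U test. The Y-linked covariate and the same pairs without the block were added after seeing the data. Some genes are not reported here.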

Additional observations from a re-analysis of the deposited data

How the results depend on the processing

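In lymphomas against tumor-free thymi the 8 genes other than Pax5 were lower in 215 of 215 values under up to 27 alternatives per gene, which all reuse the tumor-free mice by which the genes were chosen. Against controls, 1 of 223 values passed (Fcmr, Y-linked covariate, 1.27), so that 1 member was called there, and 110 of 223 were lower. With mouse number as a replicate block, 0 members were called by limma against controls, and 0 had an unadjusted p under 0.05.

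Pax5, not called, changed sign against tumor-free thymi with the replicate block (0.081), the same pairs without the block (0.081), quantile normalization (0.038) and Abl1 subtracted (0.0037). Against controls uncalled differences changed sign as follows. Pax5 was 0.062 with the replicate block and for the same pairs, 0.18 without the 4 arrays, 0.11 with array set as a block, 0.0053 with array medians and 0.011 with Abl1 subtracted. Cxcr5 was 0.033 after quantile normalization, 0.015 with array medians, 0.021 with Abl1 subtracted and 0.30 with the Y-linked covariate. That covariate gave 0.47 for Ms4a1 and 0.29 for Bank1. Ebf1 was -0.034 and Fcer2a -0.17 without the 4 arrays. Leaving out each mouse gave -0.44 to 0.042 for Ms4a1, -0.17 to 0.13 for Pax5, -0.045 to 0.11 for Ebf1, -0.17 to 0.15 for Cxcr5 and -0.074 to 0.15 for Fcer2a.

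Counts over all genes moved more. Lymphomas against tumor-free thymi gave 2020 calls, 1014 to 2203 when a mouse was left out (1014 without tumor-free mouse 1, 1271 without mouse 2), 584 with the replicate block, 951 for the same pairs, 1307 with Abl1 subtracted and 387 with the Y-linked covariate. Against controls lymphomas gave 1747 calls, 686 for the same pairs, 3752 with array set as a block, 1039 with Abl1 subtracted and 1122 with the covariate. Tumor-free against control gave 2037, 1257 with the replicate block, 3418 with array set as a block and 0 by the Mann-Whitney U test, where 2979 genes had an unadjusted p under 0.05 and the smallest exact p is 0.0159. The genes of the other B-lineage lists, relatives and partners of the members included, gave 43, 17 and 45 calls in these comparisons. The covariate left 20 of 43 calls and 9 in place of 17. For the 17, leaving out a mouse gave 11 to 17 (11 without control mouse 4 or 5), the same pairs 10 and the probe set with the largest SD 9. The Mann-Whitney U test called 0 in place of 45, with 49 at an unadjusted p under 0.05. Causes were not tested.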
